A study of Mus musculus with 117 samples.

Results

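In mGfap-Cre-RiboTag mice, messenger RNA from cells that had used the mouse Gfap promoter was compared, 14 days after spinal cord injury (SCI), with the RNA left over in the same immunoprecipitations. The data comprised 10 of the 117 libraries of the series, 5 made from RNA bound to tagged ribosomes (RiboTag) and 5 from the remaining supernatant (Flow), and the libraries of 1 mouse shared a number from 1 to 5. All 5 mice were labelled female C57BL/6 young adults that carried the mGfap-Cre-73.12 transgene and the RiboTag allele and had received a complete lateral crush of the thoracic cord. A block of tissue around the lesion centre was taken after perfusion with saline. For comparison, RiboTag and Flow libraries were taken from 5 uninjured mice of the same line at postnatal day 63 (P63), 3 labelled male and 2 labelled female. Others came from 4 female Aldh1l1-CreERT2-RiboTag mice, also 14 days after the crush, which the paper describes as C57BL/6 young adults.

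RiboTag is an allele of Rpl22, a protein of the large ribosomal subunit, that gains a hemagglutinin tag wherever Cre recombinase has acted, so that an antibody to the tag pulls down ribosomes of those cells with the messages they are reading. In the mGfap line, Cre is active from development onwards and marks each cell that has used the Gfap promoter together with all of its descendants. In the Aldh1l1 line, Cre is inactive until tamoxifen is given to the adult. It then marks cells that use the Aldh1l1 promoter at that time, together with their descendants. Astrocytes buffer potassium, take up glutamate and water and, after SCI, form a border around the lesion. Gfap, an intermediate filament, and Aldh1l1, an enzyme of folate metabolism, are their standard markers. Ependymal cells with motile cilia line the central canal, oligodendrocyte progenitor cells (OPCs) give rise to myelinating oligodendrocytes, and Schwann cells make the myelin of spinal roots and can enter injured cord.

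Levels are given as CPM, counts scaled to library size with edgeR's TMM factors. An enriched gene had a log2 ratio of RiboTag to Flow of at least 1 (2-fold) and a false discovery rate (FDR) under 0.01 in edgeR's quasi-likelihood test with the mouse as a block, and a depleted gene met the same limits in the other direction. Library totals ranged from 99987229 to 117082323 counted reads in RiboTag and from 87340800 to 110030856 in Flow. Genes of the mitochondrial genome took 0.108% to 0.155% of the RiboTag reads and 2.30% to 4.98% of the Flow reads. A single gene identifier without a symbol took 2.54% to 7.08% of the RiboTag reads and 0.175% to 0.484% of the Flow reads, a share that differed between mice as well as between fractions. In RNA of a whole tissue block, fewer cells of a type and less RNA per cell cannot be told apart.

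Both marker genes of the astrocyte were enriched, and the tagged ribosomal gene itself was not. Gfap (GRCm38, chr11:102887336-102897200) stood at 25185, 28452, 25138, 20276 and 28732 CPM in the RiboTag libraries of mice 1 to 5 and 2043, 1641, 2193, 1474 and 2183 CPM in their Flow libraries. Every RiboTag value was above every Flow value, and the log2 ratio was 3.75 ± 0.18 (SE) with an adjusted p of 9.05e-07 in edgeR's quasi-likelihood test. Aldh1l1 (chr6:90550768-90599171) stood at 269.5, 233, 178, 141 and 212 CPM in RiboTag and 21.9, 17.6, 20.4, 14.98 and 23.7 CPM in Flow. The 5 mice again separated completely by fraction, with a log2 ratio of 3.38 ± 0.13 (SE) and an adjusted p of 5.16e-07. Rpl22 stood at 209.6, 114, 131, 144 and 116 CPM in RiboTag and 246, 150.1, 244, 298 and 223 CPM in Flow. It was lower in RiboTag than in Flow in every mouse, though values overlapped across mice. Its log2 ratio of -0.71 ± 0.15 (SE) was within 2-fold (adjusted p = 0.00272 in the same test), so Rpl22 was neither enriched nor depleted.

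**Figure D1:**
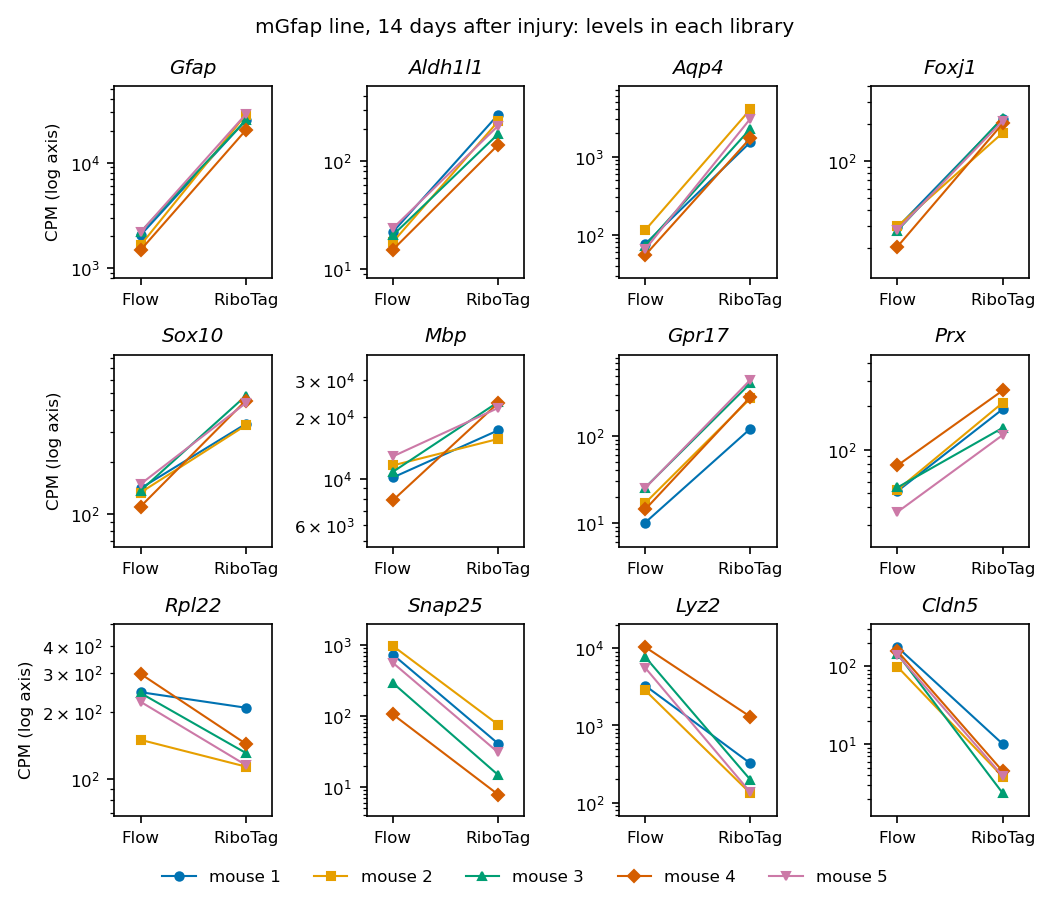
CPM on a log axis for 12 named genes, with each mouse's RiboTag and Flow value joined by a line and each panel on its own scale. Gfap and the other astrocyte, ependymal, oligodendrocyte lineage and Schwann cell genes lie higher in RiboTag in all 5 mice, and Rpl22, Snap25, Lyz2 and Cldn5 lie lower.

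Of 17746 genes tested, 2906 (16.4%) were enriched and 3579 (20.2%) were depleted, and the median log2 ratio over all genes was -0.02. The 10 highest ratios among genes with a mean of at least 10 CPM in the higher fraction belonged to Slc39a12 (5.98), Itgb8 (5.49), Aqp4 (4.98), Gpam (4.93), Acsbg1 (4.73), Igsf1 (4.70), Pcdhgc5 (4.67), Sox21 (4.66), Lars2 (4.61) and Elovl2 (4.55). Slc39a12 is a zinc transporter, Itgb8 an integrin subunit that activates TGF-beta, Aqp4 the water channel of astrocyte endfeet, and Gpam, Acsbg1 and Elovl2 are enzymes of lipid metabolism. Slc39a12 stood at 175, 313, 158, 100.3 and 224 CPM in RiboTag and 4.40, 3.38, 2.87, 1.88 and 2.45 CPM in Flow. Aqp4 stood at 1527, 4005, 2265, 1723 and 3045 CPM in RiboTag and 76.5, 115, 73.1, 55.2 and 65.4 CPM in Flow. For both genes every RiboTag value was above every Flow value. Lars2, a mitochondrial leucyl-tRNA synthetase, took 0.0871% to 0.325% of the RiboTag reads and 0.00523% to 0.0217% of the Flow reads, and the unnamed identifier described above was likewise lowest in mouse 2 among the RiboTag libraries. Whether the Lars2 value comes from that transcript was not tested.

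The 10 lowest ratios belonged to Uts2 (-6.64), Lypd2 (-6.57), Bc1 (-6.42), Hba-a1 (-5.61), Igha (-5.61), the mitochondrial gene ND6 (-5.60), Krtdap (-5.59), Saa3 (-5.54), S100a9 (-5.52) and Igkc (-5.44). Uts2 encodes the peptide urotensin, Bc1 is a short noncoding RNA of neurons, Hba-a1 is an alpha globin, Igha and Igkc are constant regions of antibodies, and S100a9 is a calcium-binding protein of neutrophils. Bc1 stood at 24.8, 11.3, 7.25, 3.22 and 10.8 CPM in RiboTag and 2012, 761, 460.1, 368 and 1280.0 CPM in Flow. Mouse 1 was highest in both fractions of Bc1, and the fractions did not overlap. Hba-a1 and Hba-a2 have near-identical sequences, so reads of one may have been counted for the other.

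The lists of cell type markers separated into those above 0 and those below 0. The lists for astrocytes, ependyma, OPCs, newly formed and myelinating oligodendrocytes and Schwann cells had positive medians, and those for neurons, microglia, myeloid cells, lymphocytes, neutrophils, erythrocytes, endothelium, mural cells and fibroblasts had negative medians. The labels call the cells of the RiboTag libraries astrocytes, and the libraries are named here by line and fraction because markers of several glial types were enriched in them.

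**Figure D2:**
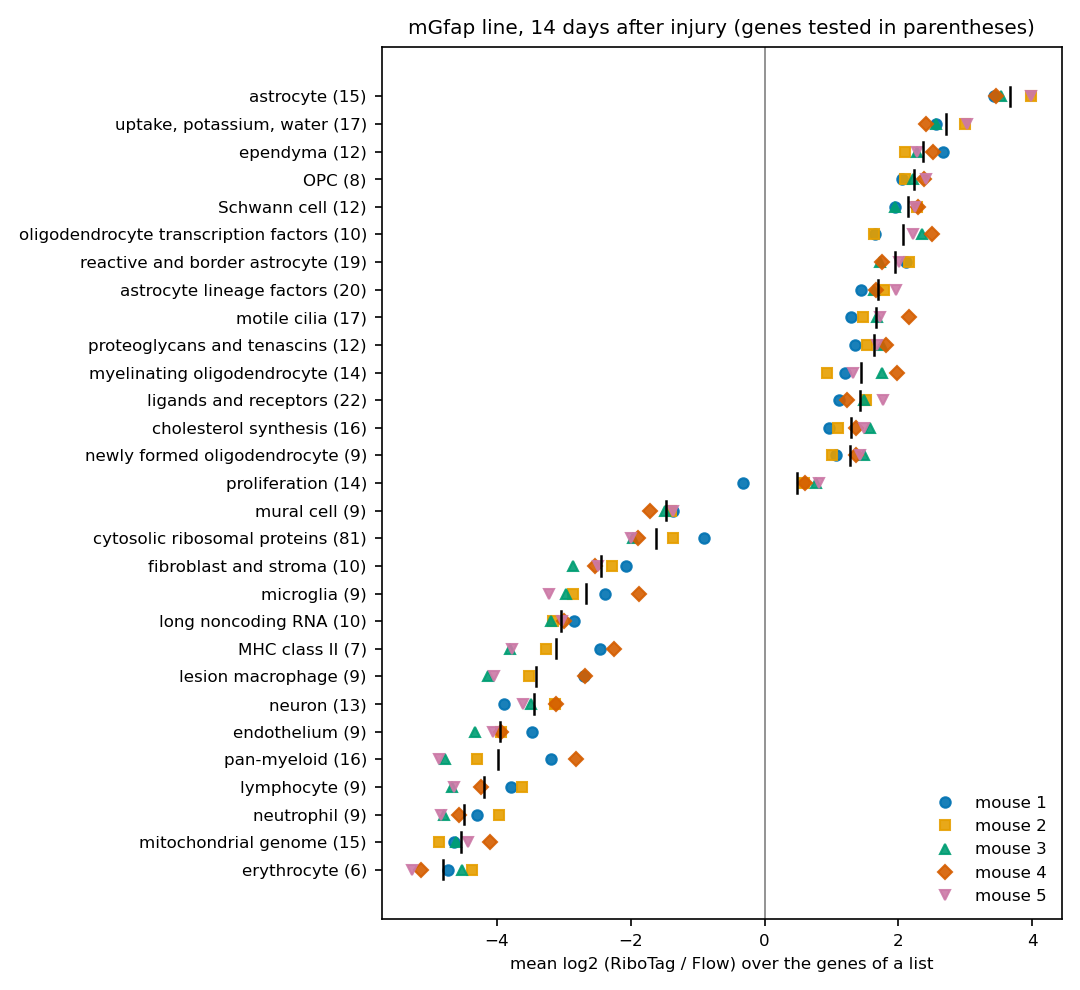
Mean log2 ratio of RiboTag to Flow over the tested members of each list, with 1 point per mouse and a bar at the mean of the 5 mice. Astrocyte markers lie highest at 3.68 and erythrocyte, neutrophil and mitochondrial genes lie lowest.

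Among astrocyte markers, 14 of 15 were enriched, with a list median of 3.75 and list means from 3.42 to 3.98 over the mice. The exception was Gjb6, a connexin, with a ratio of 0.84, although Gja1, the other astrocyte connexin listed, was enriched (4.06). Aldoc, an aldolase of glycolysis, stood at 5127, 4457, 2496, 2078 and 3754 CPM in RiboTag and 411, 323, 191.7, 138 and 338 CPM in Flow. Atp1b2, the beta subunit of the glial sodium pump, stood at 7234, 7210.5, 5061, 4302 and 6938 CPM in RiboTag and 872, 683.1, 594, 552 and 637 CPM in Flow. Both genes separated by fraction in every mouse, with log2 ratios of 3.70 ± 0.14 (SE) and 3.19 ± 0.15 (SE) and adjusted p of 4.63e-07 and 9.55e-07 in edgeR's quasi-likelihood test.

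The genes by which astrocytes clear transmitter, potassium and water followed: 14 of 17 were enriched (median 2.93). Slc1a2, the main glutamate transporter, stood at 3449, 5253, 2494, 1877 and 3871 CPM in RiboTag and 272, 229, 153, 113 and 173 CPM in Flow. Its log2 ratio was 4.15 ± 0.18 (SE), with an adjusted p of 7.09e-07. The GABA transporter Slc6a11 (4.20), the serine transporter Slc7a10 (3.81) and the potassium channels Kcnj10 (3.05) and Kcnj16 (3.88) were enriched as well. Glul, glutamine synthetase, was above Flow in every mouse but under 2-fold (0.88), and Gjb6 and the glutamate receptor Grm3 (0.50) were not called. Genes named from a list beyond its 3 most abundant members were chosen after their values were seen.

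Of the genes tied to reactive and border-forming astrocytes, 16 of 19 were enriched and 2 depleted, with a median of 2.36. Serpina3n, a serine protease inhibitor induced in reactive astrocytes, stood at 1734, 2473, 3039, 2994 and 2846 CPM in RiboTag and 227, 400.0, 495, 380.0 and 571 CPM in Flow. Lcn2, the secreted siderophore-binding protein lipocalin, stood at 708, 302.6, 514, 1124 and 369 CPM in RiboTag and 108, 28.7, 64.8, 125 and 45.5 CPM in Flow. Both were enriched (2.69 ± 0.15 (SE) and 3.06 ± 0.13 (SE)), and their RiboTag and Flow values did not overlap. Mice 4 and 1 had the highest Lcn2 in RiboTag, and these mice also had the highest summed myeloid markers there, given below, whose part in the Lcn2 values was not tested. Prdx6, a peroxiredoxin (3.54), A2m (3.50), the complement protein C3 (3.20) and the cytoskeletal genes Vim (1.40) and Nes (1.13) were enriched. Cp (-1.28), the copper carrier ceruloplasmin, and Mfge8 (-1.81), a bridge to apoptotic cells, were depleted, and Timp1 (0.91) was not called.

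Among regulators of the astrocyte lineage and of neural progenitors, 12 of 20 were enriched and the median was 1.52. The transcription factors Sox2 (4.37), Rfx4 (4.30), Sox9 (3.36) and Pax6 (3.10) and the helix-loop-helix inhibitors Id4 (4.09), Id2 (2.47) and Id3 (1.35) were among those enriched. Nfia was higher in RiboTag in every mouse at a ratio of 0.68, under 2-fold, and Hes1 (-0.71), Notch2 (-0.50), Egfr (-0.78) and Sox11 (-0.19) had negative ratios that were not called.

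Every tested ependymal marker, 12 of 12, was enriched, with a median of 2.48. Foxj1, the master regulator of motile cilia, stood at 219, 169, 223, 201 and 210.4 CPM in the RiboTag libraries of mice 1 to 5 and 29.3, 29.8, 27.6, 20.5 and 28.0 CPM in their Flow libraries. The fractions were fully apart in Foxj1, with a log2 ratio of 2.92 ± 0.13 (SE) and an adjusted p of 7.97e-07 in edgeR's quasi-likelihood test. Mia (3.43), Dynlrb2 (2.77), Tmem212 (2.68) and Ccdc153 (2.62) were also enriched, and Rarres2, the chemerin precursor, was close to 2-fold at 1.09 and fell below it without mouse 1 (0.93) or with unscaled library totals (0.99). Without the pairs of mice 1 and 4, 10 of the 12 markers were called. A separate list of motile cilia genes had 10 of 17 tested members enriched and a median of 1.51. Its enriched members included Rsph4a (3.42), a radial spoke protein, Tekt1 (2.98), a filament of the axoneme, Dnali1 (2.52) and Dnah5 (2.75) of the dynein arms, and the RFX factors Rfx2 (1.22) and Rfx3 (2.44). Most cilia genes outside the call, such as Hydin (1.51) and Dnah12 (1.16), had means under 1 CPM in both fractions.

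RFX factors regulate ciliary genes through the X-box, a motif whose half-site is GTTGCC, or GGCAAC on the other strand. The bases before the annotated starts are shown because they hold this half-site in several of the enriched ependymal and cilia genes. Sequences were taken from RefSeq promoters (GRCm38.p6), are written 5′ to 3′ on the strand of the gene and carry the half-site in capitals. The windows lie at chr9:44240495-44240560 (+ strand), chr8:116504934-116504999 (+ strand), chr3:106001498-106001539 (- strand), chr11:58801961-58802006 (- strand), chr14:13670780-13670845 (+ strand), chr4:41507765-41507805 (- strand), chr11:72361883-72361927 (- strand) and chr17:56831089-56831154 (- strand), in the order below.
Ccdc153: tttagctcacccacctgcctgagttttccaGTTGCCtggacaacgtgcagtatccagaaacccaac
Dynlrb2: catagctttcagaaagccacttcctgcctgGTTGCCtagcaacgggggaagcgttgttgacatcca
Pifo: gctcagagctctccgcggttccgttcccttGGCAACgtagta
Fam183b: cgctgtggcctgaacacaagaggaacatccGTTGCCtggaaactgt
Sntn: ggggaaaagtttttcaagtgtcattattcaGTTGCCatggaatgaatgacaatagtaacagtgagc
1110017D15Rik: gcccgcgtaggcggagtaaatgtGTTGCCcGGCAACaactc
Tekt1: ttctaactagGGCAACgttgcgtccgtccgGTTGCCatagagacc
Rfx2: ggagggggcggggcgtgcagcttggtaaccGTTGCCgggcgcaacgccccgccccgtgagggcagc
The windows of 1110017D15Rik and Tekt1 hold the half-site in both orientations. A half-site in the 250 bases before a start was present in 6 of 9 ependymal genes with a promoter entry (66.7%) and in 5 of 16 motile cilia genes (31.2%). It was present in 3195 of 27025 genes of the whole promoter table (11.8%), in 2 of 12 astrocyte markers (16.7%), in 1 of 12 myelinating oligodendrocyte markers (8.33%), in 4 of 10 neutrophil markers (40%) and in 3 of 5 erythrocyte markers (60%). These matches are letters in a window, in lists of few genes, and carry no evidence of binding.

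Genes of the oligodendrocyte lineage were enriched from progenitor to myelin. For OPC markers, 6 of 8 were enriched with a median of 2.49, and for the lineage's transcription factors 9 of 10 with a median of 2.10. Newly formed oligodendrocyte markers had 6 of 9 enriched (median 1.38) and myelinating oligodendrocyte markers 10 of 14 (median 1.47). Olig1, a transcription factor of the lineage, stood at 874, 801, 1131, 949 and 1125 CPM in RiboTag and 155, 183, 170.1, 105 and 209 CPM in Flow. Sox10, which drives myelin genes in oligodendrocytes and Schwann cells, stood at 332, 326, 483, 453 and 438 CPM in RiboTag and 141, 133, 136, 110.3 and 149 CPM in Flow. In both genes all RiboTag values were above all Flow values, at log2 ratios of 2.59 ± 0.17 (SE) and 1.59 ± 0.15 (SE) with adjusted p of 4.49e-06 and 2.71e-05 in edgeR's quasi-likelihood test. Only Tcf7l2, which is on 2 of the lists, was not called among the factors (0.99).

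Gpr17, a receptor of OPCs that are about to differentiate, had the highest ratio of the OPC list (4.02 ± 0.14 (SE)) and stood at 122, 273, 408, 283 and 447 CPM in RiboTag and 9.99, 16.8, 25.4, 14.2 and 25.1 CPM in Flow. Mouse 1 had the lowest Gpr17 in both fractions, and the fractions did not overlap. The ganglioside sialidase Neu4 (3.07), Lhfpl3 (2.93), the matrilin Matn4 (2.65) and the secreted C1ql1 (2.34) were enriched. The receptors most used to define OPCs were not: Pdgfra, the receptor for platelet-derived growth factor, had a ratio of 0.58 (adjusted p = 0.0116) and the NG2 proteoglycan Cspg4 one of 0.26 (adjusted p = 0.063), and the fractions overlapped in both. Fibroblasts can also express Pdgfra, and mural cells Cspg4, and the part of such cells in these values was not tested. Bmp4, a ligand on the newly formed oligodendrocyte list, was depleted (-1.31), while Enpp6 (2.54), Fyn (2.24) and Bcas1 (1.38) were enriched.

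Summed over the 14 myelinating oligodendrocyte markers, RiboTag libraries held 30356, 30754, 44696, 40175 and 40908 CPM and Flow libraries 15899, 18709, 16639, 12096 and 19641 CPM for mice 1 to 5. Every RiboTag sum was above every Flow sum. Mbp, myelin basic protein, stood at 17144, 15569, 23492, 23235 and 21991 CPM in RiboTag and 10134, 11595, 10792, 7855 and 12823 CPM in Flow. Its fractions did not overlap, and its log2 ratio of 0.93 ± 0.20 (SE) was just under 2-fold (adjusted p = 0.00335), so Mbp was not called, although it passed 2-fold in some of the alternatives tried. Ugt8a, which makes the galactolipid of myelin, had the highest ratio of the list (2.43). Mobp (0.97), Hapln2 (0.64) and Gjb1 (0.90) also had positive ratios under 2-fold.

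Schwann cell markers were enriched in 11 of 12 cases, with a median of 2.20. Prx, periaxin, which helps anchor the outer membrane of the peripheral myelin sheath, stood at 191.6, 212, 142, 258 and 127 CPM in the RiboTag libraries of mice 1 to 5 and 51.5, 52.7, 54.7, 77.8 and 36.9 CPM in their Flow libraries. The fractions did not overlap, and Prx had a log2 ratio of 1.76 ± 0.12 (SE) and an adjusted p of 4.66e-06 in edgeR's quasi-likelihood test. Foxd3 (3.37), a factor of the neural crest, Pmp2 (3.00), a lipid carrier of myelin, Pou3f1 (2.82), a factor of promyelinating Schwann cells, and Dhh (2.69), their hedgehog ligand, were enriched, as was Drp2 (1.85), the partner of periaxin in one membrane complex. Egr2, the factor that turns on peripheral myelin, was not called (0.97).

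The proteoglycans and tenascins of the glial matrix were enriched in 7 of 12 cases (median 1.75). Bcan, brevican, stood at 895, 806, 663, 572 and 760.1 CPM in RiboTag and 62.2, 57.9, 53.9, 39.1 and 64.4 CPM in Flow. Its fractions were apart in every mouse, at 3.74 ± 0.12 (SE) with an adjusted p of 3.45e-07. Ptprz1 (4.36), Tnr (3.96), Ncan (3.21), Cspg5 (2.55), Vcan (2.23) and Tnc (1.26) were enriched, whereas Acan (-0.73), the link protein Hapln1 (-0.70) and the glypicans Gpc4 (-0.36) and Gpc6 (-0.28) had negative ratios without a call.

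Of ligands and receptors known to act between OPCs, astrocytes and myelin, 12 of 22 were enriched and 2 depleted, with a median of 1.19. Among ligands, Fgf2 (4.69) and Cntf (4.11) were enriched at RiboTag means of 4.44 and 1.30 CPM, Fgf1 was just past 2-fold at 1.05 and fell below it without mouse 3 (0.97) or with unscaled totals (0.94), and Pdgfa (0.10) was not called. Bmp4 and the Notch ligand Jag1 (-1.45) were depleted. Among receptors, Fgfr3 (4.36), Erbb3 (3.90), Bmpr1b (3.84), Bmpr1a (2.09), Notch1 (1.69) and the cytokine receptors Osmr (1.76), Il6st (1.41) and Cntfr (1.40) were enriched, and Fgfr1 (0.11), Lifr (0.34) and Lpar1 (0.59) were not. The FGF receptors were unequal, with Fgfr3 far above Fgfr2 (1.33) and Fgfr1.

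Cholesterol synthesis genes, which supply both astrocytes and myelin, were enriched in 8 of 16 cases, with a median of 1.00. Hmgcs1 (2.17 ± 0.16 (SE)) and Cyp51 (1.62 ± 0.10 (SE)) were called. Proliferation genes were mostly uncalled, with 1 of 14 enriched (Tpx2, 1.09, a spindle protein) and a median of 0.66. Their list means were -0.33, 0.59, 0.77, 0.61 and 0.81 in mice 1 to 5, and mouse 1 stood apart below 0. With mice 2, 3 and 5 alone, 5 of the 14 were enriched, and with unscaled library totals Tpx2 fell to 0.99. Mki67, a nuclear protein of cycling cells, stood at 14.2, 6.95, 7.99, 14.3 and 8.65 CPM in RiboTag and 42.9, 10.6, 12.7, 23.1 and 12.5 CPM in Flow. It was lower in RiboTag than in Flow in every mouse, though values overlapped across mice. Its ratio of -0.82 ± 0.17 (SE) was under 2-fold and so was not called.

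Neuronal markers were all depleted, 13 of 13, with a median of -3.49. Snap25, a protein of synaptic vesicle release, stood at 40.8, 75.5, 14.8, 7.81 and 30.6 CPM in the RiboTag libraries of mice 1 to 5 and 733, 969, 291, 105 and 559.8 CPM in their Flow libraries. No RiboTag value reached a Flow value, and the log2 ratio was -4.02 ± 0.15 (SE) with an adjusted p of 4.23e-07 in edgeR's quasi-likelihood test. The neurofilament genes Nefm (-4.19), Nefh (-4.42) and Nefl (-3.64) and the inhibitory transporter Slc32a1 (-4.95) were depleted, and Stmn2 had the weakest ratio (-1.74). Summed neuronal markers differed by mouse in Flow, at 3556, 4329, 1131, 858 and 3218 CPM, against 266, 497, 160.3, 113 and 211 CPM in RiboTag.

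Markers of myeloid and blood cells were depleted throughout. All 16 pan-myeloid, 9 lesion macrophage, 9 neutrophil and 6 erythrocyte genes tested were depleted, as were all 9 lymphocyte genes tested, with medians of -4.20, -3.56, -4.63, -4.98 and -4.57. Summed pan-myeloid markers were 1282, 446, 629.7, 3523 and 520.0 CPM in RiboTag and 13777, 10804, 23368, 29004 and 20823 CPM in Flow. RiboTag libraries of mice 4 and 1 held the most myeloid reads, and the fractions still did not overlap. Lyz2, the lysozyme of macrophages and granulocytes, stood at 322, 132, 198, 1297 and 136 CPM in RiboTag and 3287, 2853, 7725, 10372 and 5595 CPM in Flow. C1qa, a chain of complement C1q, stood at 276, 64.5, 88.6, 515 and 86.4 CPM in RiboTag and 3372, 1991, 4080.0, 5071 and 4461 CPM in Flow. Both were depleted in every mouse, at -4.29 ± 0.42 (SE) and -4.62 ± 0.43 (SE).

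S100a9, a neutrophil gene, stood at 12.2, 0.594, 0.504, 1.78 and 0.177 CPM in RiboTag and 391, 18.9, 25.3, 76.0 and 24.2 CPM in Flow. Mouse 1 was far above the others in both fractions of S100a9, and likewise in the globin Hba-a2 at 12.1, 0.914, 0.243, 1.23 and 0.283 CPM in RiboTag and 497, 18.6, 14.8, 37.6 and 24.6 CPM in Flow. Without the pairs of mice 1 and 4, all 9 neutrophil and all 6 erythrocyte genes were again depleted. Genes of MHC class II, a list added after the data were seen, were depleted in 7 of 7 cases (median -3.49). Microglial markers were depleted in 8 of 9 cases, including Olfml3 (-2.07) and Cx3cr1 (-3.57). Sall1, a transcription factor of microglia that neural progenitors can also express, was enriched (1.36) at 41.0, 74.0, 63.7, 48.5 and 64.6 CPM in RiboTag and 19.6, 28.7, 25.6, 16.3 and 23.4 CPM in Flow.

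Vascular and stromal markers were mostly depleted. All 9 endothelial genes were (median -4.12), among them the tight junction gene Cldn5 at 10.1, 3.84, 2.37, 4.52 and 3.93 CPM in RiboTag and 176, 98.6, 144, 156 and 141 CPM in Flow. Mural cell genes were depleted in 6 of 9 cases and enriched in 2, and fibroblast genes in 8 and 1 of 10. The exceptions in the mural list were the channel subunit Kcnj8 (1.37) and the receptor Notch3 (1.19), both enriched, with Tagln (0.22) uncalled. In the fibroblast list the matricellular protein Thbs2 was enriched (1.47) and Postn was uncalled (-0.18), while the collagens Col1a1 (-3.14), Col3a1 (-2.19) and Col1a2 (-1.90) were depleted.

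Transcripts of mitochondria, most messages of ribosomal proteins and the long noncoding RNAs of a short list were depleted. All 10 listed long noncoding RNAs were called, with a median of -3.13, among them Neat1 (-3.13), Meg3 (-3.32) and Malat1 (-1.74). Most long noncoding RNAs outside the list were not called. Over all annotated ones tested, 103 of 922 were enriched and 212 depleted, with a median of -0.41, against 2737 and 3105 of 15848 protein-coding genes with a median of 0.03. All 15 tested genes of the mitochondrial genome were depleted (median -4.68). Cytosolic ribosomal protein genes were depleted in 73 of 81 cases (median -1.63). The lists of mitochondrial and ribosomal protein genes were added after the data were seen. Ratios also moved with exon length, from a median of -0.21 in the shortest quartile of genes to 0.24 in the longest.

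The mGfap line was next set beside the Aldh1l1 line at the same day after injury, by testing the difference of the log2 ratios in a fit of 28 libraries. Most astrocyte genes were not called, ependymal, oligodendrocyte lineage and Schwann cell genes had higher ratios in the mGfap line, and myeloid and blood genes had lower ones. Of 19012 genes, 2037 (10.7%) were higher in the mGfap line and 2119 (11.1%) lower at an FDR under 0.01, and the median difference was 0.01. With unscaled library totals the split was 2863 higher and 1584 lower. Mouse line, the tamoxifen that the Aldh1l1 line needs, the time at which Cre acts and the batches of mice cannot be told apart here.

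**Figure D3:**
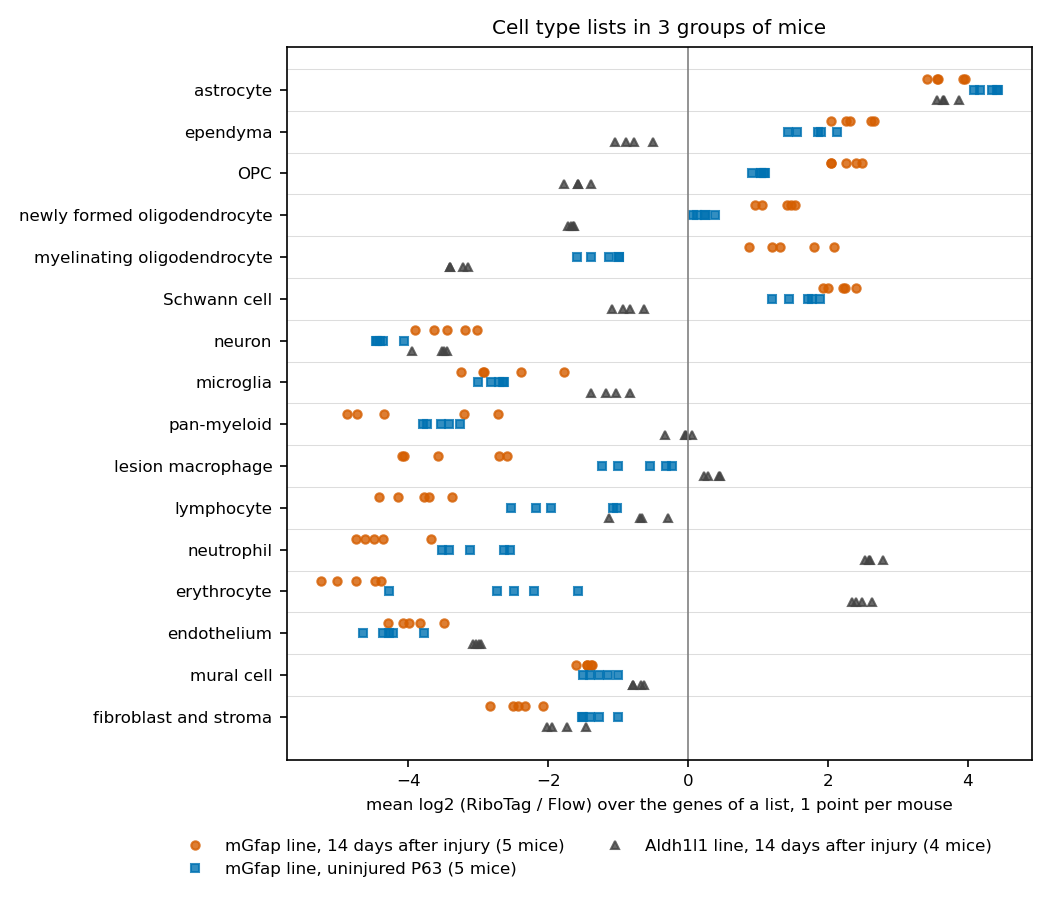
Mean log2 ratio of RiboTag to Flow over each list, with 1 point per mouse, for mGfap 14 days after SCI (5 mice), Aldh1l1 14 days after SCI (4 mice) and uninjured mGfap at P63 (5 mice). The injured lines overlap for astrocyte markers and lie apart for the oligodendrocyte, Schwann cell, neutrophil and erythrocyte lists.

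For astrocyte markers the list mean was 3.69 ± 0.24 (SD, n = 5) in the mGfap line and 3.68 ± 0.14 (SD, n = 4) in the Aldh1l1 line. Of 15 genes, 2 were higher (Mlc1 by 0.62 and Ntsr2 by 0.43) and 0 lower in edgeR's test, while 5 had an unadjusted p under 0.05 and DESeq2 gave the same counts. The Gfap ratio was 3.76 in the mGfap and 3.53 in the Aldh1l1 line, a difference of 0.23 ± 0.14 (SE, adjusted p = 0.24). That of Aldh1l1 differed by 0.17 ± 0.13 (adjusted p = 0.387). Neuronal markers had 0 of 13 calls in either direction by edgeR and by DESeq2, with 4 at an unadjusted p under 0.05. Over all 19012 genes, 7399 had an unadjusted p under 0.05 in edgeR's test, so neither list stood out by this measure.

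Oligodendrocyte lineage genes were higher in the mGfap line in 8 of 8 OPC markers, 9 of 9 newly formed and 14 of 14 myelinating oligodendrocyte markers and 10 of 10 transcription factors. The list means for myelinating oligodendrocytes were 1.45 ± 0.49 in the mGfap line and -3.29 ± 0.13 in the Aldh1l1 line, so that the same genes were above Flow in one line and below it in the other. Mbp had log2 ratios of 0.75, 0.37, 1.16, 1.67 and 0.76 in the mGfap mice and -3.74, -3.46, -3.61 and -3.44 in the Aldh1l1 mice. The groups did not overlap, and the difference was 4.50 ± 0.24 (SE, adjusted p = 6.23e-10). Olig1 differed by 4.03 ± 0.21 and Sox10 by 5.01 ± 0.19. The receptors that were not enriched against Flow differed between lines as well, Pdgfra by 2.28 and Cspg4 by 2.48.

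The largest positive differences were those of Gpr17 (7.82 ± 0.18), Col20a1 (7.31), Neu4 (7.11), Opalin (7.04), Susd5 (6.96), the long noncoding RNA 9630013A20Rik (6.42), Inava (6.20) and Rab33a (6.13). Gpr17, Neu4 and Opalin are oligodendrocyte lineage genes of the lists above. Gpr17 averaged 300.1 ± 125 CPM (SD) in RiboTag and 17.8 ± 6.62 in Flow of the mGfap line, and 9.45 ± 1.67 and 129.8 ± 17.8 in the Aldh1l1 line. Its Flow level was thus lower in the mGfap line while its RiboTag level was higher. Opalin, a membrane protein of myelin, averaged 129 ± 31.6 and 43.3 ± 9.65 CPM in the mGfap line and 2.23 ± 0.191 and 98.7 ± 10.7 CPM in the Aldh1l1 line.

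**Figure D4:**
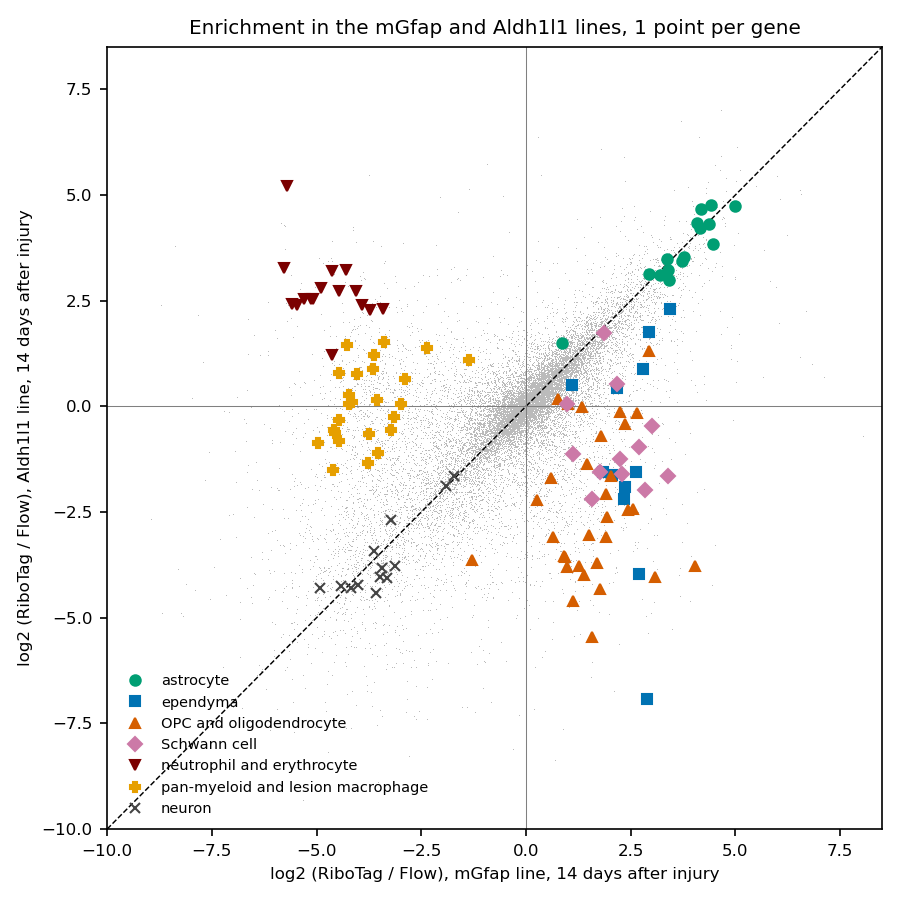
Log2 ratio of RiboTag to Flow for each tested gene in the mGfap line (horizontal axis) and in the Aldh1l1 line (vertical axis) 14 days after SCI, with listed genes in colour and a dashed line where the ratios are equal. Astrocyte genes lie along the line, oligodendrocyte, Schwann cell and ependymal genes mostly below it on the mGfap side, and neutrophil, erythrocyte and myeloid genes above it.

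Ependymal markers were higher in the mGfap line in 11 of 12 cases, with list means of 2.38 ± 0.26 and -0.80 ± 0.23. Foxj1 differed by 1.17 ± 0.16 (adjusted p = 1.69e-05), Ccdc153 by 4.19 ± 0.21 and Ak7 by 4.53 ± 0.27, and Rarres2 missed the threshold (0.61, adjusted p = 0.0153). The Foxj1 difference was smaller than its ratio in the mGfap line, so Foxj1 lay above Flow in the Aldh1l1 line too, unlike the list mean. Motile cilia genes were higher in 8 of 18 cases. Schwann cell markers were higher in 11 of 12 cases, with Prx at 3.33 ± 0.18. The exception was Drp2 (0.14 ± 0.13, adjusted p = 0.482), which lay above Flow in both lines. Prx averaged 183 ± 54.4 and 52.9 ± 13.04 CPM in RiboTag and Flow of the mGfap line and 21.8 ± 7.42 and 64.8 ± 25.9 CPM in the Aldh1l1 line.

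Matrix genes were higher in the mGfap line in 8 of 12 cases, led by Vcan (3.72), Acan (3.50) and Tnr (2.88), with Bcan at 1.50 ± 0.12, and Gpc6 was lower (-0.71). Cholesterol synthesis genes were higher in 13 of 16 cases, among them Fdps (1.61). Of lineage and progenitor regulators, 4 of 20 were higher, among them Sox11 (1.71), Sox2 (1.41) and Sox4 (1.08), and 1 was lower (Notch2, -0.98). Their median difference was 0.15. Over all genes 10.7% were higher and 11.1% lower. Among receptors and ligands, 8 of 22 were higher and 1 lower, with a median difference of 0.04. Those higher included Erbb3 (4.57), Dll1 (3.43), Lpar1 (3.03), Bmp4 (2.34), Fgfr2 (1.42) and Pdgfa (1.32). Fgfr3 (0.05, adjusted p = 0.908) was not called.

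Myeloid and blood genes were lower in the mGfap line, in all 16 pan-myeloid, 9 lesion macrophage, 10 neutrophil, 6 erythrocyte and 7 MHC class II genes, and in 7 of 9 microglial and 4 of 10 lymphocyte genes. The neutrophil list mean was -4.38 ± 0.42 in the mGfap line and 2.63 ± 0.11 in the Aldh1l1 line, and the erythrocyte means were -4.78 ± 0.36 and 2.47 ± 0.12. The largest negative differences were those of Hba-a1 (-8.02), S100a9 (-7.87), Hbb-b1 (-7.85), Hba-a2 (-7.83), Mpo (-7.82), S100a8 (-7.62), Napsa (-7.45) and Ngp (-7.18). S100a9 averaged 2.97 ± 4.99 CPM in RiboTag and 104 ± 157 in Flow of the mGfap line, and 58.0 ± 19.2 and 10.8 ± 3.21 in the Aldh1l1 line. The neutrophil and globin genes were therefore above Flow in the RiboTag libraries of the Aldh1l1 line and below Flow in those of the mGfap line. Lyz2 differed by -5.74 ± 0.43 and C1qa by -3.12 ± 0.42.

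Against uninjured mice of the same line at P63, a comparison that uses the same 10 libraries of injured mice as the one above, the RiboTag to Flow ratios of oligodendrocyte genes were higher after injury and those of many astrocyte genes were lower. Of 19012 genes, 5406 (28.4%) were higher after SCI and 2893 (15.2%) lower, and the median difference was 0.29, so a gene at the middle of all genes was itself higher. The share of calls that were higher was 65.1%, and it was 53.1% with DESeq2's size factors, 72.2% with unscaled library totals, 46.0% after centring on the median gene and 52.0% without mouse 2. A ratio can differ through either fraction, so the levels of both are given for several of the genes below. Ratios given without levels, and the counts of list members, do not show which fraction differed. P63 mice also differed in labelled sex, and with female P63 mice alone 3469 genes were higher. Mitochondrial genes took 8.55% to 9.90% of the Flow reads at P63, against 2.30% to 4.98% after SCI. In RiboTag these shares were 0.298% to 0.420% at P63 and 0.108% to 0.155% after SCI. Injury, age and other differences between these sets of mice and libraries cannot be told apart here.

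Gfap itself had a lower ratio after SCI, by -1.40 ± 0.13 (adjusted p = 2.66e-07). It averaged 24977 ± 2939.5 CPM in RiboTag and 1852 ± 332 in Flow after SCI, and 23743 ± 2149 and 661 ± 78.3 CPM at P63. The RiboTag means differed by less than either SD, and the Flow mean was higher after injury. Astrocyte markers were lower in 7 of 15 cases and higher in 1, uptake and potassium genes lower in 8 of 17 and higher in 0, reactive and border genes lower in 12 of 19 and higher in 3, and lineage factors lower in 10 of 20, such as Id3 (-1.81 ± 0.14), and higher in 4. After centring on the median gene, the numbers lower were 10, 11, 12 and 12.

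Lcn2 (6.30 ± 0.26) had the largest positive difference, followed by the neuropeptide gene Npb (6.10), the homeobox gene Nkx2-9 (5.10), the synaptotagmin Syt4 (4.85) and the chaperone Clgn (4.58). Lcn2 averaged 596 ± 337 CPM in RiboTag and 71.5 ± 38.2 in Flow after SCI, and 0.830 ± 1.23 and 6.84 ± 8.52 CPM at P63. Its RiboTag mean was below 1 CPM in uninjured mice and above the Flow mean in injured mice. Serpina3n was higher by 1.18 ± 0.15, and Steap4, a metalloreductase, by 3.93 ± 0.42. Npb averaged 18.02 ± 5.31 and 5.86 ± 1.84 CPM after SCI and 0.653 ± 0.335 and 13.7 ± 2.76 CPM at P63, so its fractions were in opposite order.

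**Figure D5:**
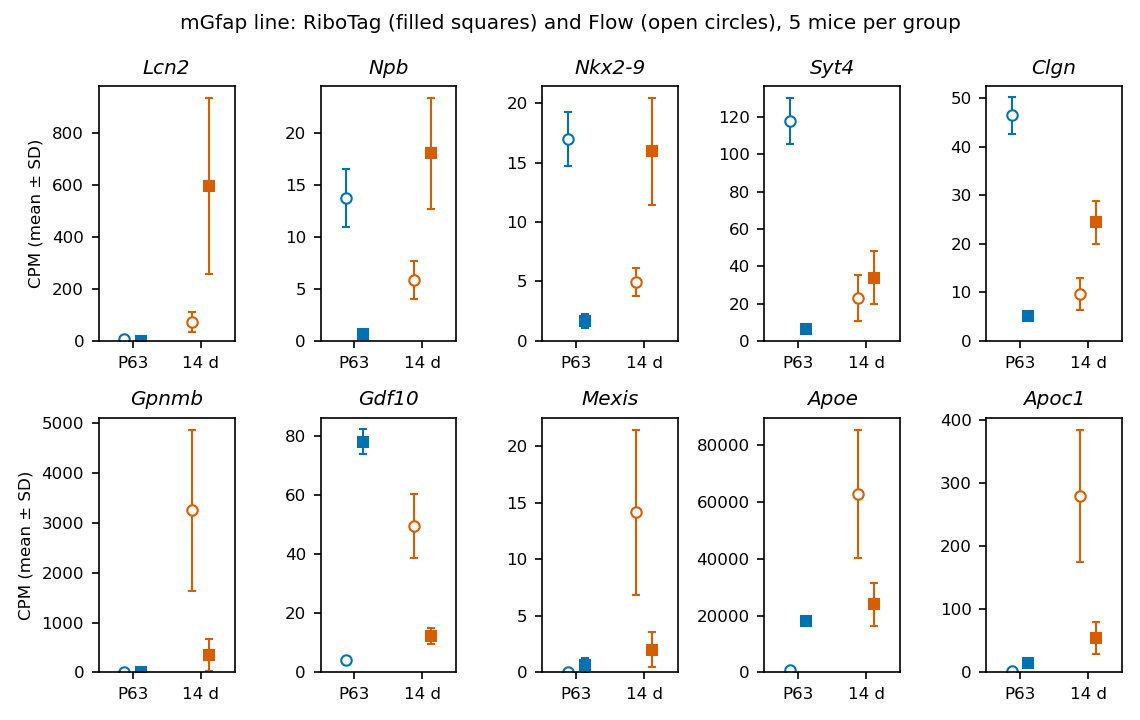
Mean CPM with SD bars, on a linear axis of its own for each gene, in RiboTag (filled squares) and Flow (open circles) libraries of injured (14 days, n = 5) and uninjured (P63, n = 5) mGfap mice, for the 5 genes a side with the largest differences. Lcn2 has a RiboTag mean above its Flow mean after injury and below it at P63, and Apoe, Apoc1, Gpnmb and Gdf10 have higher Flow than RiboTag means after injury and the opposite order at P63.

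The largest negative differences were those of Gpnmb (-6.74 ± 0.30), Gdf10 (-6.27), the long noncoding RNA Mexis (-5.92), Apoe (-5.68 ± 0.27) and Apoc1 (-5.66). Apoe, the lipoprotein of astrocytes and macrophages, averaged 23965 ± 7653 CPM in RiboTag and 62810.2 ± 22656 in Flow after SCI, and 17930.3 ± 1485 and 897 ± 78.0 CPM at P63. The Flow mean was higher after SCI by a larger factor than the RiboTag mean, and the order of the fractions was the opposite. Gpnmb, a glycoprotein of phagocytes, averaged 355 ± 320.4 and 3249 ± 1622 CPM after SCI and 16.5 ± 4.38 and 1.60 ± 0.192 CPM at P63. In RiboTag of the injured mice Gpnmb was 268, 144, 264, 914 and 201 CPM, highest in mouse 4, which also held the most summed myeloid markers, and the part of those cells in it was not tested.

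Myelinating oligodendrocyte markers were higher after SCI in all 14 cases, and lineage transcription factors in 9 of 10, and these numbers held with DESeq2's size factors, unscaled totals and centring on the median gene. The list mean for myelinating markers was 1.45 ± 0.49 after SCI and -1.22 ± 0.26 at P63. Mbp differed by 2.63 ± 0.22 (adjusted p = 6.46e-08) and averaged 19906 ± 3882 and 10352 ± 1975 CPM after SCI and 5257 ± 821 and 16816 ± 1181 CPM at P63. The RiboTag mean was higher and the Flow mean lower after injury. Sox10 differed by 2.16 ± 0.17, and OPC markers were higher in 5 of 8 cases, with Cspg4 lower (-0.83).

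Foxj1 was higher after SCI by 2.09 ± 0.15 (adjusted p = 1.71e-08), at 200.2 ± 22.7 and 26.3 ± 4.18 CPM after SCI and 75.3 ± 4.75 and 41.9 ± 3.94 CPM at P63, while 3 of 12 ependymal markers were higher and 1 lower, a share no larger than the 28.4% of all genes that were higher. Schwann cell markers were higher in 3 of 12 cases and lower in 1, again no more than over all genes, and Prx had a difference of -0.22 ± 0.16 (adjusted p = 0.282). Both lists lay above Flow in uninjured mice too. Ependymal list means were 1.77 ± 0.28 (SD) at P63 and 2.38 ± 0.26 after SCI, and Schwann cell list means 1.60 ± 0.28 and 2.16 ± 0.19. Cytosolic ribosomal protein genes were lower in 70 of 81 cases. Cholesterol synthesis genes were higher in 9 of 16 cases and lower in 1, but in 3 and 5 after centring on the median gene.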

How the data were processed

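Of the 117 libraries, 28 from 14 mice were analysed, and the rest were not used here. The deposited files hold raw counts per gene, which the authors made by trimming with Trimmomatic, aligning to mm10 with HISAT2 and counting with featureCounts at default settings in Galaxy, from poly-A selected paired-end libraries. Most counts from 1 to 10 were even numbers (65.7% to 72.6% in the mGfap libraries at 14 d), so both mates of a fragment were counted. Counting is not stated to use strand, so overlapping and antisense genes may share reads. The files list 27179 gene identifiers, of which 25275 matched a RefSeq symbol.

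Groups came from the sample titles, and libraries were paired by number. RiboTag and Flow of 1 number are fractions of the same immunoprecipitation of 1 mouse. Deviations of same-numbered libraries from their group means correlated at 0.155 to 0.552 in the mGfap line at 14 d, 0.0411 to 0.176 at P63 and 0.0576 to 0.105 in the Aldh1l1 line. Libraries of different numbers correlated at -0.339 to 0.174, -0.106 to 0.0551 and -0.0617 to 0.0326, so the ranges overlapped in the mGfap groups. Each RiboTag library correlated best with the Flow library of its own number. Genes were filtered with filterByExpr and tested with edgeR 4.0.16 in R 4.3.3 (TMM scaling, robust quasi-likelihood fit in legacy mode, mouse as a block, Benjamini-Hochberg adjustment over all genes). Enrichment was called at an FDR under 0.01 and at least 2-fold in the 10 mGfap libraries, and differences between groups at an FDR under 0.01 in a fit of all 28, whose scaling gives slightly other CPM than the fit of 10. Per-mouse log2 ratios used a prior count of 2. DESeq2 1.42.0 was an alternative. The code was tested on simulated data.

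Named genes were Gfap, Aldh1l1 and Rpl22, the 3 most abundant members of each list, the 10 highest and 10 lowest ratios, and the 8 largest differences a side from the Aldh1l1 line and the 5 a side from P63, with a mean of at least 10 CPM and, for differences, no overlap between groups. Some genes that this rule names are counted in their lists and not reported here by name. The members, lists and comparisons were chosen with earlier results of these data known. Lists are described by counts and medians beside those of all genes tested, without a test of their own.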

Additional observations from a re-analysis of the deposited data

Results flagged for a closer look

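Of 146 groups of 5 values examined, 2 held a value far from the others. Chance alone gives such a value in a small share of groups, and 2 of 146 is not shown to exceed that share. In mouse 1 the mean log2 ratio of the proliferation list was -0.33, with the nearest mouse at 0.59, and the ratio of Mki67 was -1.60, with the nearest mouse at -0.69. Mki67 is a member of that list, so both values rest on the same pair of libraries.

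The difference of the log2 ratios between the mGfap and the Aldh1l1 line 14 days after SCI passed the test for the genes that follow. The ratio was higher in the mGfap line for Gpr17 (7.82), Col20a1 (7.31), Neu4 (7.11), Opalin (7.04), Susd5 (6.96), 9630013A20Rik (6.42), Inava (6.20), Rab33a (6.13), Foxj1 (1.17), Olig1 (4.03), Sox10 (5.01), Bcan (1.50), Mbp (4.50) and Prx (3.33). It was lower for Hba-a1 (-8.02), S100a9 (-7.87), Hbb-b1 (-7.85), Hba-a2 (-7.83), Mpo (-7.82), S100a8 (-7.62), Napsa (-7.45), Ngp (-7.18), Lyz2 (-5.74) and C1qa (-3.12).

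Against uninjured mGfap mice at P63, the log2 ratio after SCI was higher for Lcn2 (6.30), Npb (6.10), Nkx2-9 (5.10), Syt4 (4.85), Clgn (4.58), Foxj1 (2.09), Sox10 (2.16), Serpina3n (1.18) and Mbp (2.63). It was lower for Gpnmb (-6.74), Gdf10 (-6.27), Mexis (-5.92), Apoe (-5.68), Apoc1 (-5.66), Gfap (-1.40) and Id3 (-1.81). Both sets of differences use the same libraries of injured mGfap mice.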

How the results depend on the processing

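The counts of enriched and depleted genes were 2906 and 3579, and with 1 mouse left out they ranged from 2538 to 3033 and from 3166 to 3565. Without the pairing of libraries by mouse they were 2775 and 3327, and the differences without this replicate block were 1667 higher and 1746 lower against the Aldh1l1 line and 4605 and 2376 against P63. DESeq2 called 3044 and 3976 genes, DESeq2's size factors in edgeR 2843 and 3647, and unscaled library totals 2498 and 3749. With 1 mouse left out, the numbers higher and lower were 1525 to 2266 and 1752 to 2294 against the Aldh1l1 line, and 4017 to 5632 and 2561 to 3703 against P63. With female P63 mice alone, 3469 genes were higher, for which fewer mice were fitted. Against P63, DESeq2's size factors gave 4223 higher and 3727 lower, unscaled totals 6108 and 2352, and centring on the median gene 3658 and 4296.

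Among list medians, that of proteoglycans and tenascins moved to 1.95 with mice 2, 3 and 5 alone. With mice 3 to 5 alone, whose deposited names form another number series, medians moved to 1.68 for newly formed oligodendrocytes, -5.42 for neutrophils, -4.43 for endothelium, 1.79 for astrocyte lineage factors, 1.85 for motile cilia and 1.29 for cholesterol synthesis. The cause was not tested. These alternatives and the centring were chosen after seeing the data. No list median against Flow and none of the named genes recomputed changed sign. The balance of calls did turn, to more genes higher than lower against the Aldh1l1 line with unscaled totals (2863 and 1584), to fewer against P63 after centring (3658 and 4296), and to about equal numbers enriched and depleted with mice 3 to 5 alone (2830 and 2826). Of 1632 checks of single named genes against Flow, 1615 kept their call, 9 lost it and 8 gained it. The calls lost included those of Rarres2, Fgf1 and Tpx2. All 272 checks against the Aldh1l1 line and all 190 against P63 kept their call. These covered only the 8 largest differences a side from the Aldh1l1 line and the 5 a side from P63. Those genes were picked for large differences past the threshold, so their kept calls say little about smaller differences. Other genes named for a difference, such as Foxj1, Prx and Id3, were not rechecked singly. Genes below a few reads per library, such as several lymphocyte and cilia genes, are limited by depth.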
